A study of Mus musculus with 8 samples.

Results

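The cytosolic ribosomal protein genes were taken as the genes whose symbol begins with Rpl, Rps or Rplp followed by a number. Of 105 matching symbols, 10 Rps6k kinase genes, 6 pseudogenes and Rpl10l were left out, which left 88 of the 21058 genes in the tables. Of these 88, 84 are autosomal and 4 (Rpl10, Rpl36a, Rpl39 and Rps4x) lie on the X chromosome. The symbol rule also took in Rps19bp1, which encodes a protein that binds RPS19 and is not part of the ribosome, and the retrogene Rps23rg1, while genes such as Rpsa, Fau and Rack1, which encode parts of the ribosome under other names, fall outside it.

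The study asked how ARID1A, the putative DNA-binding subunit of the BAF chromatin remodeler, shapes transcription at pachynema, when the sex chromosomes are normally silenced. RNA was sequenced from 4 Arid1a WT and 4 Arid1a cKO samples of pachytene spermatocytes purified by Sta-Put sedimentation, which sorts dissociated testis cells by size. Arid1a cKO males were Arid1a fl/fl; Stra8-Cre Tg/0, and Arid1a WT males were Arid1a fl/fl or Arid1a fl/+ without the transgene. The floxed mice were on a CD1 background, and each purification drew on testes of at least 12 males older than 60 days. Stra8-Cre is active from early spermatogonia onward and excised Arid1a incompletely, so the Arid1a cKO samples hold some spermatocytes that escaped. Fractions were pooled after their cells had been judged mostly pachytene by light microscopy.

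Each ribosome is built from 1 copy of nearly every ribosomal protein, so the mRNAs of this family are abundant and usually move together, and their translation is set through a run of pyrimidines at the start of the mRNA. In male germ cells, X-linked ribosomal protein genes are shut down with the rest of the X during meiosis, and several have autosomal paralogues that are used in the testis. RPL39L, for instance, takes the place of RPL39 in the wall of the tunnel through which the new protein leaves the ribosome.

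The libraries held 15850961 to 22044507 estimated counts. Arid1a itself was lower in every Arid1a cKO library, at 76.4, 81.0, 82.9 and 78.3 CPM (counts relative to the effective library size) against 105, 129, 121 and 98.8 in Arid1a WT (log2 fold change -0.51 ± 0.07 SE, edgeR adjusted p = 2.31e-05). Markers of other cells moved with genotype. All 16 spermatid markers were higher in Arid1a cKO, with a summed level of 26430 to 28180 TPM (abundance scaled for transcript length and for the whole library) against 6363 to 7228. Pachytene markers, the labelled cell type, were present in both genotypes and summed to 6764 to 7248 TPM in Arid1a cKO and to 8173 to 9085 in Arid1a WT (5 higher, 7 lower). Sertoli markers fell from 368 to 434 TPM down to 93.5 to 102, with 8 of 8 tested markers lower and Rhox5 at 0, and 6 of 7 Leydig markers were lower (78.7 to 92.2 TPM against 7.27 to 8.91). For leptotene and zygotene spermatocytes, 6 of 8 markers were higher and 2 lower (158 to 187 TPM in Arid1a WT and 171 to 179 in Arid1a cKO), and for spermatogonia 9 of 12 were higher and 2 lower (129 to 138 and 126 to 137 TPM). Macrophage and blood markers (5 of 8 higher, 1 lower) and peritubular and endothelial markers (3 of 6 higher, 1 lower) summed to under 12 TPM in every library. The part of these cells in the results that follow was not tested, and in bulk RNA fewer cells of a type and less RNA per cell cannot be told apart.

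The coding sequences of an X-linked gene and its autosomal paralogue show how far reads could be told apart. RPL39 and RPL39L are each encoded by 156 bases, 23 of which differ (85.3% identity), and the longest stretch without a difference is 38 bases. They are shown from GENCODE M21 (GRCm38), with the bases that differ between both genes in capitals. Rpl39 lies at chrX:37082518-37085222 and Rpl39l at chr16:10170197-10174911.
Rpl39: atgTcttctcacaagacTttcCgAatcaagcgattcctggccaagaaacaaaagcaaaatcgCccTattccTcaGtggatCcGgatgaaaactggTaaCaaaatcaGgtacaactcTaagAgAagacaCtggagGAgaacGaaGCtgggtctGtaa
Rpl39l: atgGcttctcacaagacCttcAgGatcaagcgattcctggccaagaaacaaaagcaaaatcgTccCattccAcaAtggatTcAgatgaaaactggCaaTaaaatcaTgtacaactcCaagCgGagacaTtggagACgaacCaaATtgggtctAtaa
Rpl36a (chrX:134585654-134588062) and its autosomal paralogue Rpl36al (chr12:69182734-69184067) differ at 39 of 321 coding bases (87.9% identity).
Rpl10 and Rpl10l differ at 98 of 645 coding bases (84.8% identity). In contrast, Rps27 and Rps27rt have the same 255 coding bases, so the split of counts between these genes is uncertain. Over all annotated transcripts, Rpl39 shared 21.8% of its 31-base words with another gene and Rpl39l 2.05%, but Rpl36a shared 87.6% and Rps4x 78.4%. In all, 30 of the 87 members with a transcript shared at least 50% of their words, and their values are the less certain ones.

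Ribosomal protein mRNAs were among the most abundant in these cells. In Arid1a WT, 71 of the 88 genes exceeded 100 TPM and 45 were among the 500 genes with the highest mean TPM. The highest levels belonged to Rpl41, which encodes a very short basic peptide of the large subunit (1387 ± 69.3 TPM, SD, n = 4), Rps24 of the small subunit body (1040 ± 74.7) and Rps29 of the small subunit head (1038 ± 29.2). Rps24 and Rps29 did not differ beyond their spread. In Arid1a cKO, these genes stood at 1348 ± 43.9, 1275 ± 29.2 and 1169 ± 35.3 TPM.

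In total, ribosomal protein mRNAs made up 3.03, 2.94, 2.79 and 3.17% of library TPM in Arid1a WT and 2.82, 2.89, 2.77 and 2.91% in Arid1a cKO (means 2.98 ± 0.16% and 2.84 ± 0.06%, SD, n = 4 each). The genotypes overlapped on this measure. As a percent of estimated counts they also overlapped, at 1.06 ± 0.07% and 0.991 ± 0.03%. However, the TPM of the listed genes summed to only 78.1 to 81.1% of each Arid1a WT library and to 88.1 to 88.6% of each Arid1a cKO library, the rest belonging to transcripts outside the table. Relative to the listed genes alone, every Arid1a cKO library was below every Arid1a WT library (3.22 ± 0.07% against 3.75 ± 0.16%). Mitochondrial ribosomal proteins (0.346 ± 0.006% against 0.434 ± 0.02% of library TPM) and proteasome subunits (0.447 ± 0.005% against 0.507 ± 0.03%) were below Arid1a WT in every Arid1a cKO library on the scale of the whole library.

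**Figure D1:**
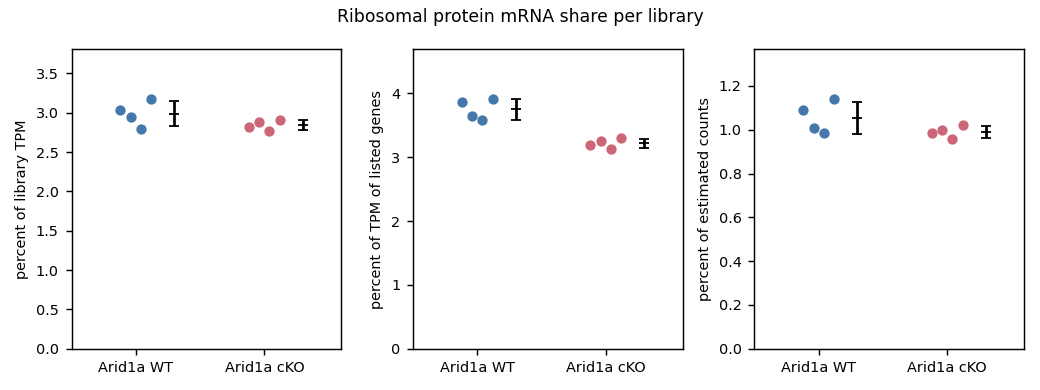
Summed ribosomal protein mRNA per library as a percent of library TPM (left), of the TPM of the listed genes (middle) and of estimated counts (right), for 4 Arid1a WT and 4 Arid1a cKO libraries; points are libraries, bars are mean ± SD beside them. The genotypes overlap in the left and right panels, and in the middle panel all Arid1a cKO libraries lie below all Arid1a WT libraries.

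Gene by gene, most ribosomal protein genes differed little between Arid1a cKO and Arid1a WT. In edgeR's test (adjusted p of 0.05 or less), 27 of the 87 tested genes were higher in Arid1a cKO, 20 were lower and 40 were not called. Over all 17643 genes tested, 74.0% were called, 36.5% higher and 37.5% lower, against 54.0% of ribosomal protein genes (31.03% and 22.99%). Among all genes at a similarly high level (4 or more log2 CPM on average), 87.8% were called. The changes were also small. In 69 of 87 ribosomal protein genes (79.3%) the log2 fold change was under 0.5 in size, compared with 34.6% of all genes, and the median size was 0.19 against 0.76. Only Rps19bp1, Rps27a and Rpl3l were called with a log2 change of 1 or more, where 36.6% of all genes were. The genotypes did not overlap in CPM for 35 of the 87 genes (40.2%), compared with 68.9% of all genes. Rpl32l had too few counts for a test.

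**Figure D2:**
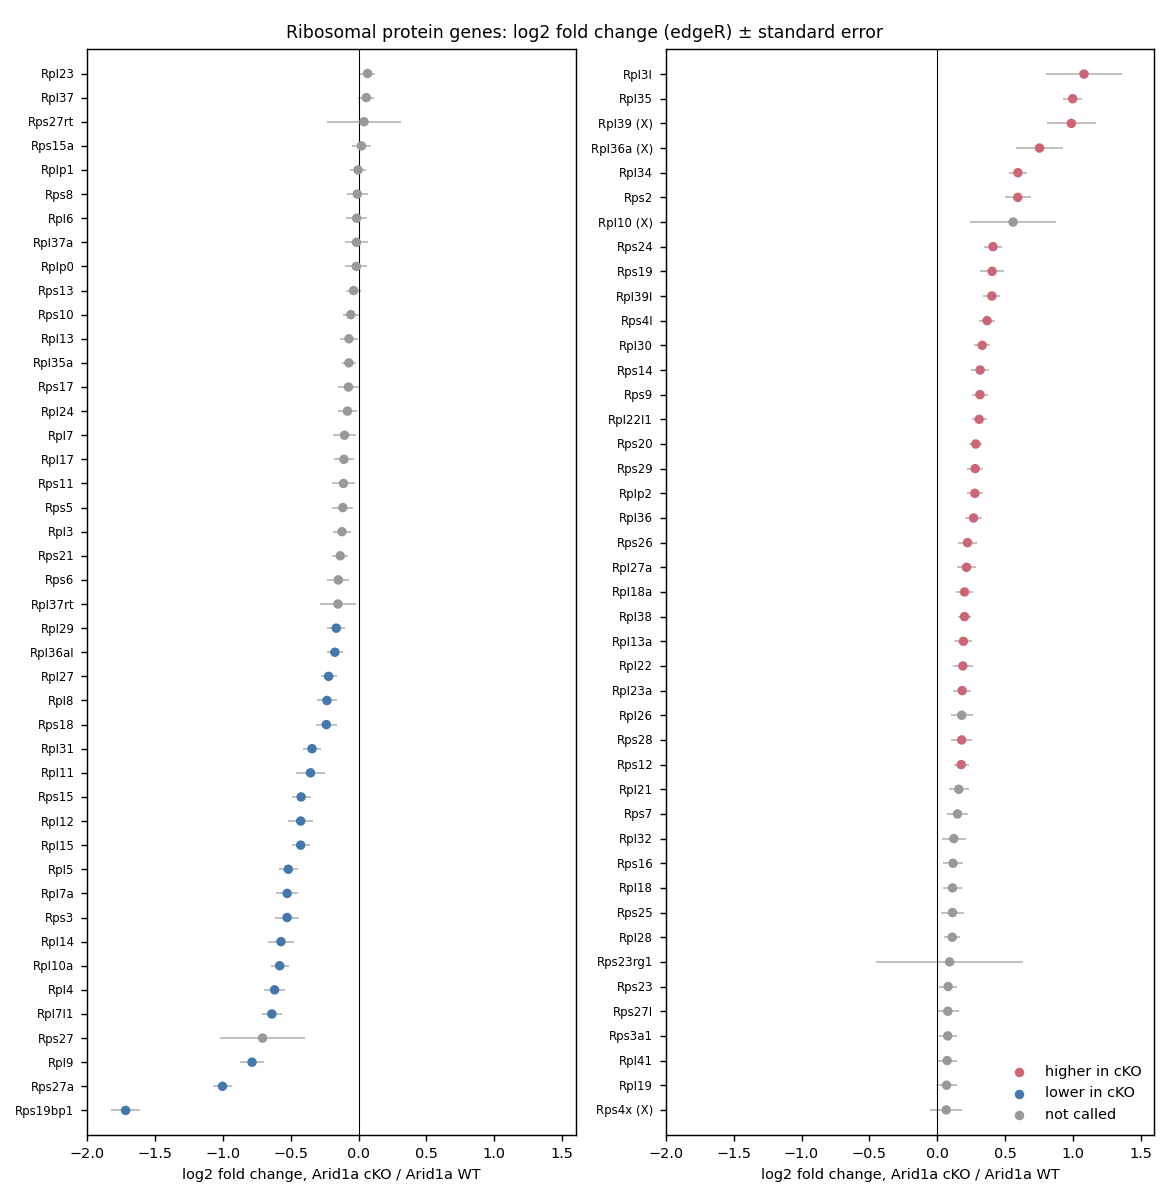
Log2 fold change (Arid1a cKO over Arid1a WT) of the 87 tested ribosomal protein genes with its standard error, ordered from the largest fall (left panel, bottom) to the largest rise (right panel, top), with X-linked genes marked (X) and colour giving the edgeR call. Most points lie within 0.5 of 0, Rps19bp1 stands apart at -1.72, and Rpl3l, Rpl35 and Rpl39 lead the rises.

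Whether more ribosomal protein genes rose or fell depended on how libraries were scaled. The median log2 fold change was 0.07 with TMM scaling (all genes -0.02), and -0.04 when library size alone was used, which shifted the median of all genes to -0.12. Under library size, 19 genes were higher and 34 lower (33.3% and 40.9% of all genes), and with limma on log2(TPM + 1) the split was 18 and 34 (31.6% and 38.2%). DESeq2 gave 28 higher and 18 lower (35.3% and 34.9%), TMM factors from autosomal genes 31 and 19 (37.5% and 36.4%) and offsets for transcript length 24 and 20 (34.6% and 35.3%). After TPM had been rescaled to the listed genes, a setting chosen after the data were seen, 9 were higher and 50 lower (27.5% and 43.2%). No direction is therefore given for the family as a whole.

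**Figure D3:**
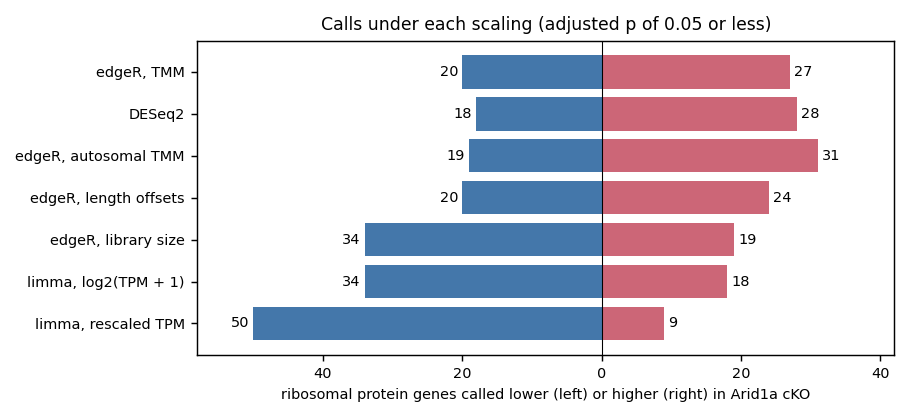
Number of ribosomal protein genes called higher (right) or lower (left) in Arid1a cKO at an adjusted p of 0.05 or less, under 7 ways of scaling or testing the same 8 libraries. The split runs from 31 higher and 19 lower with TMM factors from autosomal genes to 9 higher and 50 lower with TPM rescaled to the listed genes.

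Calls in 1 direction under all 6 of edgeR with TMM, edgeR with library size, edgeR with autosomal TMM factors, edgeR with length offsets, DESeq2 and limma on log2(TPM + 1) were made for 35 genes (18 higher, 17 lower), beside 29.6% of all 17643 genes called higher and 32.4% called lower in all 6. The 18 higher genes were Rpl22l1, Rpl30, Rpl34, Rpl35, Rpl36, Rpl36a, Rpl39, Rpl39l, Rpl3l, Rplp2, Rps14, Rps19, Rps2, Rps20, Rps24, Rps29, Rps4l and Rps9. The 17 lower genes were Rpl10a, Rpl11, Rpl12, Rpl14, Rpl15, Rpl27, Rpl31, Rpl4, Rpl5, Rpl7a, Rpl7l1, Rpl8, Rpl9, Rps15, Rps19bp1, Rps27a and Rps3. With rescaled TPM as a seventh setting, all 17 lower calls and 9 of the 18 higher calls (Rpl30, Rpl34, Rpl35, Rpl36a, Rpl39, Rpl39l, Rpl3l, Rps2 and Rps24) were kept, and Rps12 was called higher with TMM and lower with rescaled TPM.

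The 4 X-linked genes were expressed far below the median of the autosomal ones. In Arid1a WT, Rpl10 stood at 7.66 ± 3.64 TPM (SD, n = 4), Rps4x at 10.9 ± 1.44, Rpl39 at 11.4 ± 3.89 and Rpl36a at 22.9 ± 6.63, where the median over autosomal ribosomal protein genes that are no paralogue was 324 ± 22.02. Rpl10, Rps4x and Rpl39 did not differ beyond their spread. A few autosomal members were also low, with Rpl12 at 17.5 and Rps2 at 22.1 TPM. RPL10 joins the large subunit late in its assembly, RPS4X sits in the body of the small subunit, and RPL36A belongs to the large subunit.

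Rpl39 was the X-linked gene with the largest rise. Its TPM was 6.79, 12.4, 16.1 and 10.3 in the Arid1a WT libraries and 22.6, 17.7, 21.0 and 20.7 in the Arid1a cKO libraries. Every Arid1a cKO library was above every Arid1a WT library, and the log2 fold change was 0.99 ± 0.18 (SE, edgeR adjusted p = 1.75e-04). Rpl36a stood at 26.5, 30.5, 16.9 and 17.8 TPM in Arid1a WT and at 40.5, 28.9, 36.0 and 38.7 in Arid1a cKO. Its groups overlapped in TPM through 1 library of each genotype, although they did not overlap in CPM, and it was called higher (0.75 ± 0.17, edgeR adjusted p = 1.15e-03). Rpl10 and Rps4x were not called. Rpl10 had a log2 fold change of 0.56 ± 0.31 (edgeR adjusted p = 0.123) with TPM between 3.09 and 11.9 in Arid1a WT and between 5.80 and 13.95 in Arid1a cKO, and passed the threshold without Arid1a WT 2 (edgeR adjusted p = 0.0300) or Arid1a cKO 3 (edgeR adjusted p = 0.0323). Rps4x had 0.07 ± 0.12 (edgeR adjusted p = 0.626), with TPM of 9.75 to 13.0 and 9.199 to 11.93, and this value turned slightly negative under library size, under TPM and without Arid1a cKO 1. For comparison, the median log2 fold change of the 799 X-linked genes tested was 1.32, and 66.6% of them were higher. All 4 X-linked ribosomal protein genes were below that median. At 20.5 ± 2.06 and 36.0 ± 5.10 TPM in Arid1a cKO, Rpl39 and Rpl36a remained far under the autosomal median, which was 287 ± 6.77 TPM in Arid1a cKO.

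**Figure D4:**
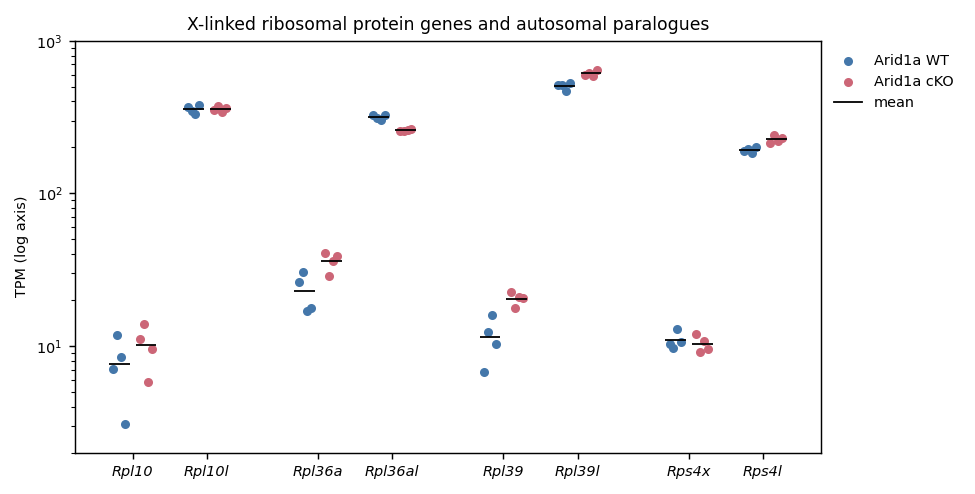
TPM (log axis) of the X-linked genes Rpl10, Rpl36a, Rpl39 and Rps4x and of their autosomal paralogues Rpl10l, Rpl36al, Rpl39l and Rps4l; each point is a library, and lines are means over 4 Arid1a WT or 4 Arid1a cKO libraries. The paralogues lie between 185 and 641 TPM in every library, and the X-linked genes at 3.09 to 40.5 TPM.

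The autosomal paralogues supplied most mRNA of these pairs in both genotypes, at 86.4% of TPM or more in every library. Rpl39l made up 97.8 ± 0.85% (SD, n = 4) of the TPM of Rpl39l and Rpl39 in Arid1a WT and 96.8 ± 0.38% in Arid1a cKO, and these shares overlapped. Rpl39l itself was higher in every Arid1a cKO library (599, 619, 586 and 641 TPM against 515, 515, 468 and 532; log2 fold change 0.40 ± 0.06, edgeR adjusted p = 4.91e-05). Both members of the pair thus rose. The share of Rpl36al, in contrast, was 92.6, 91.1, 94.7 and 94.8% in Arid1a WT and 86.4, 89.9, 87.8 and 87.2% in Arid1a cKO, with no overlap. Rpl36al was called lower with TMM (-0.17 ± 0.06, edgeR adjusted p = 0.0167) while Rpl36a was called higher, but not with DESeq2 (adjusted p = 0.0706) or without Arid1a WT 1 (edgeR adjusted p = 0.0593) or Arid1a WT 4 (edgeR adjusted p = 0.0666). Rps4l, which RefSeq lists as a transcribed pseudogene on chromosome 6, made up 94.6 ± 0.82% of its pair with Rps4x in Arid1a WT and 95.6 ± 0.73% in Arid1a cKO, and was called higher (0.37 ± 0.06, edgeR adjusted p = 4.91e-05), though not with rescaled TPM (0.0836, limma adjusted p = 0.112). Rpl10l, the retrogene on chromosome 12 left out by the rule, held 97.9 ± 1.06% of its pair in Arid1a WT and 97.3 ± 0.81% in Arid1a cKO, and was not called (0.14 ± 0.07, edgeR adjusted p = 0.0664), but was called higher with DESeq2 (adjusted p = 0.0453), with autosomal TMM factors (edgeR adjusted p = 0.0257) and without Arid1a WT 1 (edgeR adjusted p = 0.0423) or Arid1a WT 4 (edgeR adjusted p = 0.00766), and lower with rescaled TPM (-0.14, limma adjusted p = 0.0208).

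Paralogues of autosomal genes gave a different picture. Rpl22l1 and Rpl22 were expressed at nearly equal levels (Rpl22l1 47.3 ± 2.82% of the pair in Arid1a WT, 48.2 ± 0.31% in Arid1a cKO). Rpl22l1 was called higher (0.31 ± 0.05, edgeR adjusted p = 1.38e-04) except with rescaled TPM (0.0278, limma adjusted p = 0.640), as was Rpl22 with TMM (0.19 ± 0.07, edgeR adjusted p = 0.0298). The call of Rpl22 was lost under library size (edgeR adjusted p = 0.202), with limma on log2(TPM + 1) (adjusted p = 0.0667) and without Arid1a WT 2 or 3 or Arid1a cKO 1, 2 or 4 (edgeR adjusted p = 0.0526 to 0.0988). Rpl7l1 encodes a nucleolar relative of RPL7 with a role in ribosome assembly. It was lower in every Arid1a cKO library, at 27.6, 24.7, 29.1 and 27.1 CPM against 43.3, 43.7, 36.9 and 45.2 (-0.64 ± 0.07, edgeR adjusted p = 1.61e-06), and with offsets for transcript length the fall was -0.38. In TPM the genotypes overlapped, with Arid1a WT 3 at 23.1 and Arid1a cKO 3 at 26.1. Its share of the pair with Rpl7 was 10.5 ± 1.47% and 8.87 ± 0.84% by TPM, with overlap, but 19.7 ± 1.22% and 14.4 ± 1.22% by counts, where every Arid1a cKO library was below every Arid1a WT library. Rpl3l, the striated muscle form of RPL3, was barely present (0.638 ± 0.19 TPM in Arid1a WT and 1.44 ± 0.51 in Arid1a cKO) and was called higher (1.08 ± 0.28, edgeR adjusted p = 3.11e-03), its share of the pair moving from 0.954 ± 0.29% to 2.46 ± 0.85% without overlap. Rps27l was not called (0.08 ± 0.08, edgeR adjusted p = 0.387), though it was lower with rescaled TPM (limma adjusted p = 0.0129). Rps27 just missed the threshold (-0.71 ± 0.31, edgeR adjusted p = 0.0538) and passed it under library size (edgeR adjusted p = 0.0410), with a filter of 1 count (0.0468) and without Arid1a WT 2 (0.00627) or Arid1a cKO 4 (0.0330). Also not called were Rps27rt (0.04 ± 0.27, edgeR adjusted p = 0.901) and Rpl37rt (-0.15 ± 0.13, edgeR adjusted p = 0.316, and 0.0106 without Arid1a WT 1). Of these, Rps27l made up 86.3 ± 6.37% of the TPM of Rps27l and Rps27 in Arid1a WT and 92.2 ± 4.21% in Arid1a cKO. The share of Rps27rt against Rps27 ranged from 14.3 to 33.4% in Arid1a WT and from 15.7 to 52.6% in Arid1a cKO, the widest spread of the 9 pairs.

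Among autosomal genes of at least 1 log2 CPM, Rpl35 had the largest rise with TMM and no correction for transcript length. RPL35 lies at the rim of the exit tunnel. Rpl35 stood at 55.3, 49.9, 55.5 and 64.2 CPM in Arid1a WT and at 119, 110, 104 and 116 in Arid1a cKO, so the genotypes were far apart (1.00 ± 0.07, edgeR adjusted p = 1.00e-08). With length offsets the log2 fold change was 0.54, and on the TPM scale the means were 145 ± 11.99 and 197 ± 13.8 (SD, n = 4). The ratio of counts to TPM, which follows the length of the transcripts quantified, was thus higher in Arid1a cKO. Rpl34, of the large subunit, rose from 206 ± 19.5 to 291 ± 25.6 TPM (0.59 ± 0.06, edgeR adjusted p = 8.48e-07). Its rise exceeded that of Rpl35 with length offsets (0.60) and with limma on log2(TPM + 1) (0.50 against 0.45). Rps2, whose protein lies at the mRNA entry of the small subunit, was measured at a low 10.9, 13.5, 10.8 and 14.2 CPM in Arid1a WT and at 17.6, 19.9, 19.3 and 17.99 in Arid1a cKO (0.59 ± 0.09, edgeR adjusted p = 4.69e-05), but shared 62.2% of its words with other genes.

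The lower genes included members with large and steady differences. Rps27a encodes ubiquitin fused to a protein of the small subunit head. It stood at 213, 205, 181 and 224 CPM in Arid1a WT and at 106, 93.0, 101 and 111 in Arid1a cKO (-1.003 ± 0.07, edgeR adjusted p = 7.51e-09). Every Arid1a cKO library was below every Arid1a WT library. Rpl9, of the large subunit, fell from 153, 142, 124 and 173 CPM to 89.3, 87.2, 78.2 and 88.9 (-0.79 ± 0.09, edgeR adjusted p = 1.09e-06). Rpl4, whose protein reaches into the exit tunnel, fell from 319, 281, 259 and 347 CPM to 196, 199, 195 and 195 (-0.62 ± 0.08, edgeR adjusted p = 3.41e-06). Rps19bp1, the gene for the RPS19-binding protein, had the largest fall of all (40.03, 40.5, 37.0 and 42.95 TPM against 10.7, 11.4, 13.5 and 9.60; -1.72 ± 0.11, edgeR adjusted p = 2.61e-09). Without Rps19bp1 and Rps23rg1, 27 genes were higher and 19 lower.

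Both ribosomal subunits held genes that rose and genes that fell. In the large subunit, 16 of 52 tested genes were higher and 15 lower (30.8% and 28.8%, median 0.03). Under the small subunit symbols 11 of 35 were higher and 5 lower (31.4% and 14.3%, median 0.08), or 11 of 33 and 4 without Rps19bp1 and Rps23rg1. The shares over all genes were 36.5% higher and 37.5% lower, and the counts by place that follow rest on few genes. RPL5 and RPL11, which carry 5S rRNA into the ribosome and can also bind MDM2, were both encoded by genes that were lower (Rpl5 -0.52 ± 0.07, edgeR adjusted p = 1.26e-05; Rpl11 -0.35 ± 0.11, edgeR adjusted p = 9.08e-03). Of the P-stalk genes, whose products recruit the GTPases of translation, Rplp2 was higher (0.28 ± 0.06, edgeR adjusted p = 8.91e-04), though near 0 (-0.02) with rescaled TPM, and Rplp0 (-0.02 ± 0.08) and Rplp1 (0.00 ± 0.06) were not called with TMM, with a sign that changed between scalings. Rplp1 was called lower with limma on log2(TPM + 1) (-0.13, adjusted p = 0.0293), and both were with rescaled TPM. At the exit tunnel and its rim, 5 of 10 genes were higher and 2 lower, with Rpl35 and Rpl39 at one end and Rpl4 at the other. Rpl24, listed with them at first, was left out of this count because its protein lies at a bridge between the subunits. In the small subunit head, 5 of 14 were higher and 4 lower. Rps19, mutated in Diamond-Blackfan anaemia, was among the former (0.40 ± 0.09, edgeR adjusted p = 7.13e-04, and 0.17 with a limma adjusted p of 0.162 under rescaled TPM) and Rps27a among the latter. In the body and platform, 5 of 16 were higher and 0 lower. Rps6, the target of the S6 kinases, was not called with TMM (-0.15 ± 0.08, edgeR adjusted p = 0.114) but was lower under library size (-0.24, edgeR adjusted p = 0.00556), with limma on log2(TPM + 1) (-0.27, adjusted p = 0.00426) and without Arid1a WT 3 (edgeR adjusted p = 0.00492), with 169, 137, 123 and 155 CPM in Arid1a WT and 138, 135, 125 and 129 in Arid1a cKO.

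The Arid1a WT libraries differed among themselves in a way that most ribosomal protein genes shared. Of the 84 members that averaged 1 log2 CPM or more, 66 (78.6%) were highest in Arid1a WT 4 and 67 (79.8%) lowest in Arid1a WT 3, compared with 33.9% and 37.6% of all 12997 genes at that level. In Arid1a cKO, 50 of the 84 (59.5%) were lowest in Arid1a cKO 3, and the highest values were spread over libraries 1 (32 genes), 4 (26) and 2 (21). The median coefficient of variation was 10.6% in Arid1a WT and 4.75% in Arid1a cKO. Without Arid1a WT 4, 39 genes were higher and 18 lower in Arid1a cKO (37.0% and 37.9% of all genes), and without Arid1a WT 3, 25 were higher and 28 lower (37.2% and 37.7%).

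Across the 84 members, the log2 fold change had little relation to level (Pearson r = 0.00 with mean log2 TPM) or GC content (-0.02). The same was true of the share of words found in other genes (0.04). A weak negative relation was seen with effective length, taken as counts over TPM and averaged over the libraries of both genotypes (-0.24). Over all 12997 genes that averaged 1 log2 CPM or more it was -0.14. A change of effective length between genotypes was not set against the fold changes. These correlations are across genes, which share the same libraries and depth, and are given as a description. Of the 29 tested genes that shared at least 50% of their words, 6 were higher and 6 lower (20.7% and 20.7%), and of the 57 that shared fewer, 21 were higher and 14 lower (36.8% and 24.6%), beside 36.5% and 37.5% over all genes.

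Promoters are shown for Rpl39, its paralogue Rpl39l and Rpl35. Among members that averaged 1 log2 CPM or more, Rpl39 and Rpl35 had the largest X-linked and autosomal rises with TMM. With length offsets the largest autosomal rise was that of Rpl34. RefSeq promoters (GRCm38.p6, 250 bases before to 50 after the start) were matched for 67 members, with 79 promoters. Capitals mark CCGGAAG on either strand (CTTCCGG on the other), which is the core bound by ETS factors, CTTTCC on the gene strand within 20 bases of the start, and an unbroken run of C or T over the start. The motifs can overlap within such a run.
Rpl39 (chrX:37085173-37085472, minus strand): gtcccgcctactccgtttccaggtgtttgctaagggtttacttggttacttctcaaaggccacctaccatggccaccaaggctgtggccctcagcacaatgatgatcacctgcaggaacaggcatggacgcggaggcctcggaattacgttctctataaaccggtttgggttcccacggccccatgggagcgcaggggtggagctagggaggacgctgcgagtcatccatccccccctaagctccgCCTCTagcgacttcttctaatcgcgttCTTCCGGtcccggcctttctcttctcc
Rpl39l (chr16:10169978-10170277, plus strand): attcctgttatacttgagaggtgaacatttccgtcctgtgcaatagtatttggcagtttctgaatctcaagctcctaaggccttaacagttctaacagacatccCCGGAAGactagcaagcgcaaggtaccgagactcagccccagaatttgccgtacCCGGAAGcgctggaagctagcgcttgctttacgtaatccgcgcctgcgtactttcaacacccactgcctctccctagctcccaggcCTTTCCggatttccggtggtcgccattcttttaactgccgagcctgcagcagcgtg
Rpl35 (chr2:39005082-39005381, minus strand): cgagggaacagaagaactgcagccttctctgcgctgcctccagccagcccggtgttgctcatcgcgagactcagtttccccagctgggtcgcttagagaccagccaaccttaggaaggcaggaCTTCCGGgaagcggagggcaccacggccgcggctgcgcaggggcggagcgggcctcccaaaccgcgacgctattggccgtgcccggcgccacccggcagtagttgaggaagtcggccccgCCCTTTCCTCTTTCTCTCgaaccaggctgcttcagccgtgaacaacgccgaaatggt
CCGGAAG was present in 26 of 79 member promoters (32.9%), compared with 8.86% of all 32851 promoters of the same length. CTTTCC near the start was found in 15.2% against 1.95%, and a run of 5 or more C or T over the start in 29.1% against 10.1%. TATAA at 40 to 15 bases before the start was found in 6.33% against 3.52%, and CCAAT before the start, on either strand, in 27.8% against 33.9%. The run over the start was 18 bases long in Rpl35 and 5 in Rpl39, and none was found in Rpl39l. All 3 promoters held CCGGAAG.

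The median size of the log2 fold change was 0.48 for ribosome biogenesis factors and 0.33 for translation factors, against 0.19 for ribosomal protein genes. Of 132 ribosome biogenesis factors, 33 were higher and 76 lower (median -0.26), where 36.5% of all genes were higher and 37.5% lower. With limma on log2(TPM + 1), 19 were higher, where 31.6% of all genes were. For rRNA transcription by RNA polymerase I 1 of 11 was higher and 9 lower. Among these factors, Ddx51, an RNA helicase of large subunit assembly, fell from 77.7 ± 4.26 to 15.7 ± 1.95 TPM (log2 fold change -2.11 ± 0.05, edgeR adjusted p = 8.09e-14), and Rrs1, which helps to bring the 5S particle into the large subunit, from 17.2 ± 1.24 to 3.93 ± 0.28 TPM (-1.99 ± 0.08, edgeR adjusted p = 2.32e-11). The large subunit factor Urb1 (-1.81) and the small subunit factor Rrp7a (-1.72) were also lower. The largest rise among the factors was that of Efl1 (1.71, edgeR adjusted p = 1.66e-12), whose product releases eIF6 from the new large subunit, followed by Rpf2 (1.26) and Shq1 (1.23), all named after their values were seen. Of 54 translation factors, 22 were higher and 15 lower. Eif2s3y, the Y-linked gene for the gamma subunit of initiation factor eIF2, rose from 16.5 ± 1.11 to 71.8 ± 2.17 TPM, and Eef1d, an elongation factor, from 206 ± 1.95 to 550 ± 18.96, while Eif2b1, which encodes a subunit of the exchange factor for eIF2, and the helicase gene Eif4a2 fell (log2 fold changes -2.20 and -1.58).

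Eef1d also belongs to the 26 tested mRNAs that begin with a pyrimidine run and encode other proteins. Of these mRNAs, 15 were higher and 6 lower (57.7% and 23.1%, median 0.22), beside 36.5% and 37.5% of all genes. Rpsa, a small subunit protein, was higher in that list (0.24 ± 0.07, edgeR adjusted p = 8.28e-03) except with rescaled TPM (0.02, limma adjusted p = 0.845), Rack1, which sits on the small subunit head, was lower (-0.76 ± 0.06, edgeR adjusted p = 6.84e-08), and Fau was not called (0.10 ± 0.07, edgeR adjusted p = 0.225, and 0.0288 without Arid1a WT 4). Of 26 regulators of ribosomal protein synthesis, 5 were higher and 13 lower. Mlst8, a subunit of the mTOR complexes (-1.81 ± 0.11, edgeR adjusted p = 1.47e-09), and the transcription factors Yy1 (-1.69 ± 0.05, edgeR adjusted p = 1.04e-12) and Sp1 (-1.55 ± 0.15, edgeR adjusted p = 2.06e-07) were lower, and Eif4ebp1, an inhibitor of initiation, was higher (1.11 ± 0.09, edgeR adjusted p = 7.15e-08). Mitochondrial ribosomal protein genes had 12 of 78 higher and 47 lower (15.4% and 60.3%, median -0.31). With limma on log2(TPM + 1), 7 of them were higher, where 31.6% of all genes were. Proteasome subunit genes had 5 of 40 higher and 21 lower (12.5% and 52.5%, median -0.22). These 40 include Psmc3ip, which is named after a proteasome subunit that its product binds and is not a subunit gene itself.

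**Figure D5:**
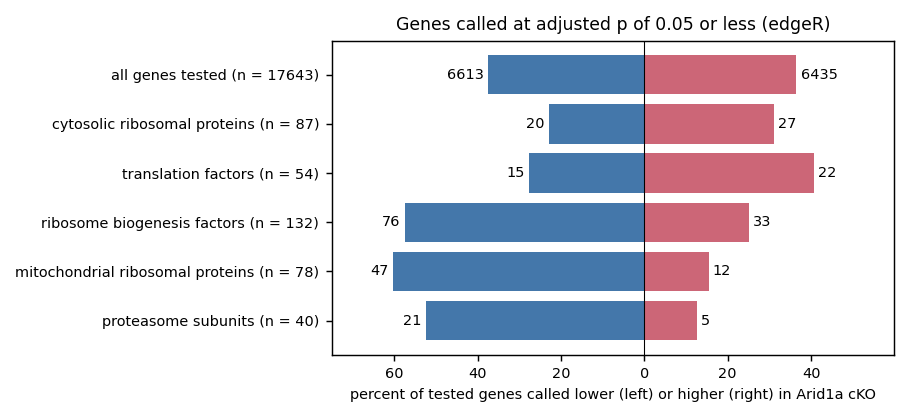
Percent of tested genes called lower (left) or higher (right) in Arid1a cKO (edgeR, adjusted p of 0.05 or less), for all genes and for 5 gene groups, with the number of genes beside each bar. Cytosolic ribosomal protein genes have 27 higher and 20 lower, and ribosome biogenesis factors, mitochondrial ribosomal protein genes and proteasome subunit genes have more lower than higher calls.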

How the data were processed

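RNA of 4 Arid1a WT and 4 Arid1a cKO samples was analysed, with genotypes and numbers taken from the labels. The authors quantified 50 bp paired-end reads with Salmon, used tximport with mm10 annotations to reach gene level, and deposited unscaled estimated counts. TPM, scaled over every quantified transcript, was deposited beside them. The authors' table of differential expression from DESeq2 holds log2 fold changes and p-values and was not used. The tools and the build are also named in the submitters' processing notes, and their versions are not given in the sources used here. The labels name no batch.

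Estimated counts were rounded, and genes reaching 10 counts in total entered edgeR 4.0.16 (TMM, glmQLFit and glmQLFTest, genotype only) in R 4.3.3, with Benjamini-Hochberg adjustment over all genes tested and calls at 0.05 or less. SE is the fold change over the root of the F statistic. CPM used TMM-adjusted library sizes. P-values measure the spread between these samples. The authors extracted RNA in quadruplicate from frozen cell pellets and do not say whether each sample came from its own purification. Totals of 15850961 to 22044507 counts set the precision of low genes such as Rpl3l. In counts simulated for this comparison (17516 genes), 200 genes were given 2-fold changes, with as many rises as falls. There edgeR recovered 80.5% of the changed genes, with 5.85% of its calls unchanged genes. In the data 74.0% of genes were called, far more than were changed in the simulation, so these rates need not hold for the data. On the same simulated counts, DESeq2 1.42.0 recovered 79.5% and limma 3.58.1 81.0%. The simulated counts had no transcript lengths, so limma was run there on counts scaled to the library total and not on TPM.

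Entrez identifiers were matched to RefSeq GRCm38.p6 for 21036 of 21058 genes. Shared 31-base words and coding sequences came from GENCODE M21 transcripts. No per-sample column was left unused.

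The results were recomputed with DESeq2, with 4 other scalings (library size alone, TMM factors from autosomes, TMM factors without ribosomal protein genes, DESeq2 size factors), 3 filters on low counts, the replicate number as a block, length offsets, limma on TPM with a pseudocount of 1 or 0.1, a stricter threshold of 0.01, leaving out members with shared words, and each library left out in turn. TPM rescaled to the listed genes, the share of that total, and the members without Rps19bp1 and Rps23rg1, were added after seeing the data. The members and all lists were chosen with earlier results of these data known. Genes named were the X-linked members, paralogues with their parents, the P-stalk, the 5 largest rises and falls among called members of at least 1 log2 CPM, the 3 highest by TPM, Rps6, Rpl5, Rpl11, Rps27a, Rps19, Arid1a, Rpl10l, Rpsa, Fau and Rack1, and up to 4 called genes per list. Named outside this rule, after their values were seen, were the sets of genes called under every scaling, Rps12, Efl1, Rpf2 and Shq1. Some results under this rule are not reported here. Tables and plots were made with pandas 2.3.3 and matplotlib 3.10.9 under Python 3.11.15. The other assays of the study were not analysed here.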

Additional observations from a re-analysis of the deposited data

Results flagged for a closer look

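Of 104 groups of 4 libraries examined, chance would put a sample far from its group in about 1 in 20 (5.2), and 1 did so. The CPM of Rpl4 in the second Arid1a cKO library was 199.1, where the other Arid1a cKO libraries lay between 195.1 and 195.7, a gap of 0.849 of the group's range. All 4 values were below every Arid1a WT value.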

How the results depend on the processing

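Of the ribosomal protein genes, 27 higher and 20 lower calls became 19 higher and 34 lower under library size without TMM, 18 and 34 with limma on log2(TPM + 1), 18 and 34 with limma on log2(TPM + 0.1), and 9 higher and 50 lower with TPM rescaled to the listed genes; the median log2 fold change of 0.07 became -0.0356, -0.0833, -0.0834 and -0.23 in that order. Leaving out 1 library gave 23 to 39 higher and 18 to 28 lower calls. The difference in the share of TPM, -0.14 percentage points of the library, was -0.53 of the listed genes, and the share of Rpl7l1 in its pair moved by -5.25 points by counts, without overlap (-1.62 by TPM, with overlap). With limma on log2(TPM + 1), 19 ribosome biogenesis factors and 7 mitochondrial ribosomal protein genes were higher, where 31.6% of all genes were. The cause of these shifts was not tested.

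The replicate numbers did not pair the samples: deviations of same-numbered libraries correlated at 0.20, 0.04, 0.09 and -0.09. With the number as a replicate block, 31 members were higher and 22 lower (60.9% of members called), beside 36.4% and 37.8% of all genes. Under this block Rps27 (-0.70, edgeR adjusted p = 4.56e-04), Rpl10 (0.58, 0.0400) and Rpl10l (0.15, 0.0329) were called. In the main edgeR test, with TMM and no block, they were not. Each of them was also called in some other settings without a block.

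Some signs turned with the setting. Under library size, limma on log2(TPM + 1), limma on log2(TPM + 0.1) and rescaled TPM in turn, log2 fold changes were -0.0356, -0.0678, -0.0734 and -0.21 for Rps4x, -0.0186, -0.0442, -0.0445 and -0.20 for Rps27l, -0.0586, -0.32, -0.37 and -0.46 for Rps27rt (-0.28 with length offsets), -0.0398, -0.0793, -0.0795 and -0.23 for Rpl37, and -0.022, -0.0402, -0.0402 and -0.19 for Rpl41. With rescaled TPM only, values were -0.0224 for Rpl22, -0.14 for Rpl32, -0.0228 for Rplp2, -0.14 for Rpl10l and -0.11 for Fau. With DESeq2, autosomal TMM, DESeq2 size factors, filterByExpr and at least 10 counts in every library in turn, Rplp0 had 0.0097, 0.0178, 0.0097, 0.0053 and 0.0198, and Rplp1 0.0241, 0.0307, 0.0241, 0.0178 and 0.032. Leaving out 1 library gave -0.0195 to 0.14 for Rps4x, -0.19 to 0.17 for Rps27rt, -0.0909 to 0.0854 for Rplp0 and -0.03 to 0.0414 for Rplp1. None of these genes but Rpl22 and Rplp2 was called with TMM. With rescaled TPM, Rps27l, Rpl37, Rpl41 and Rpl10l passed the threshold as lower (limma adjusted p = 0.0129, 0.00174, 0.00133 and 0.0208).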
